A study of Mus musculus with 10 samples.

Results

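Genes of the androgen response and of prostate lineage identity were followed in the prostates of TRAMP mice: the androgen-responsive genes Fkbp5, Tmprss2 and Abcc4, and the lineage factor genes Foxa1, Hoxb13 and Spdef. The 6 were chosen by symbol in the platform annotation, and each of the 6 had 1 probe set with a single symbol. They are 6 of 19938 genes measured that way, and all 6 were among the 14953 genes kept for testing. The array data come from 10 male TRAMP mice, 1 array per mouse. All 10 carry the TRAMP transgene, in which the promoter of Pbsn, a secretory gene of the prostate epithelium that responds to androgen, drives the large T antigen of a tumour virus, so tumours start in those epithelial cells. The water group of 5 mice drank tap water, and the nicotine group of 5 drank tap water carrying 250 µg/ml of nicotine, given as its tartrate salt, from 8 to 9 weeks of age. The labels do not state the age at tissue collection. Values are log2 expression values, so a difference of 1 is a factor of 2 on the linear scale, and the number of arrays limits the precision.

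Androgen enters prostate epithelial cells and binds the androgen receptor, a nuclear receptor held ready by chaperones, which then binds DNA and switches on a set of target genes. FOXA1 is a forkhead protein that opens chromatin for the receptor, and HOXB13 is a homeobox protein that binds beside it and marks the posterior urogenital tract. SPDEF is an ETS family factor of luminal epithelium and other secretory epithelia. FKBP5 is a co-chaperone of steroid receptors and is itself induced by them, by glucocorticoids as well as by androgen. TMPRSS2 is a membrane serine protease of the luminal surface whose gene supplies the androgen-driven promoter of many human prostate cancer gene fusions, and ABCC4 is a membrane pump for organic anions and cyclic nucleotides. In neuroendocrine prostate tumours the luminal and androgen-responsive programme is typically lost.

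The promoters of 3 of the genes are shown because Foxa1, Spdef and Tmprss2 span the smallest to the largest departure seen in the mouse that stood furthest apart. Each window is the 250 bases before the start site, from RefSeq on GRCm38.p6, 5′ to 3′ on the gene's strand. RefSeq windows were found for 5 of the 6 genes, and Hoxb13 had none. Capitals mark the forkhead core GTAAACA or the androgen receptor half-site AGAACA, searched on both strands (TGTTTAC and TGTTCT). The Foxa1 window is chr12:57546112-57546361, minus strand, the Spdef window is chr17:27728952-27729201, minus strand, and the Tmprss2 window is chr16:97611196-97611445, minus strand.
Foxa1: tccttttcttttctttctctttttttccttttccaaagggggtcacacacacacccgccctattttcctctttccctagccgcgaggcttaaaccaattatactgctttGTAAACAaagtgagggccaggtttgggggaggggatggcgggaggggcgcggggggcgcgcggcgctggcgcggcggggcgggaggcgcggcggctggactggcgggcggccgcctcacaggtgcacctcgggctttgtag
Spdef: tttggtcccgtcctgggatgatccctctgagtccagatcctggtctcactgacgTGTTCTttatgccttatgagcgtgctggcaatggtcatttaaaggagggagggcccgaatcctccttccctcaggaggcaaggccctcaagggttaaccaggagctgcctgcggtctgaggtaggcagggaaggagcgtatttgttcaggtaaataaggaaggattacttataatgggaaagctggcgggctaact
Tmprss2: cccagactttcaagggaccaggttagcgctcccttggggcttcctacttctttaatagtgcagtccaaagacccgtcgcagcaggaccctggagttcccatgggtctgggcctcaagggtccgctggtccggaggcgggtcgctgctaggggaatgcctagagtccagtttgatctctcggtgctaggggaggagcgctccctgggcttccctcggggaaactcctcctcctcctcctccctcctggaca
The forkhead core occurred in 1 place in the Foxa1 window, starting 141 bases before the start site, and in 3.17% of 32851 RefSeq windows of this length. The half-site occurred in 1 place in the Spdef window, 196 bases before the start site, and in 16.1% of all windows. Neither was found in the Tmprss2 window, nor in the Fkbp5 window. Abcc4 had 2 windows, and the second held the half-site in 1 place. The short ETS core GGAAG, searched on both strands, was present in 64.1% of all windows, with 3 matches in Spdef, 2 in Tmprss2, 1 in Fkbp5 and none in Foxa1. These matches describe letters in a window and do not show binding.

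Among the 10 prostates, nicotine mice 3 and 1 stood apart. Their median correlation with the other arrays over all tested genes was 0.654 and 0.880, against 0.983 to 0.988 for the other 8. The tissue markers of nicotine mouse 3 went against a luminal prostate: the mean of 7 luminal epithelial markers was 7.71, against 11.70 to 11.85 in water mice, and the mean of 8 prostate secretory markers was 5.99, against 11.87 to 12.14, with all 8 below every water mouse. Its 10 neuroendocrine markers were all above every water mouse, with a mean of 10.5 against 7.02 to 7.65. In nicotine mouse 1 the luminal epithelial mean was 11.68, just below the water range, the secretory mean was 10.97, the neuroendocrine mean was 9.43 and the skeletal muscle mean was 10.4, against 7.64 to 7.78 in water mice. Arrays list no gene at 0. No detection calls were used here, so deficits that end under 6.55, such as those of Tmprss2, Pbsn, Nr3c2, Tmprss13 and the secretory mean in nicotine mouse 3, are given as read. In these bulk samples fewer cells of a type and less RNA per cell cannot be told apart, and the part of tissue content in the values below was not tested.

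Tmprss2 departed furthest. In the water mice its log2 values were 10.56, 10.37, 10.51, 10.35 and 10.59 in mice 1 to 5. In the nicotine mice they were 9.30, 10.91, 6.54, 10.37 and 10.38. Nicotine mouse 3 was the lowest of all and nicotine mouse 1 the next, while nicotine mouse 2 was the highest of the 10, so the groups overlapped. Nicotine mouse 3 lay 3.93 log2 units under the water mean of 10.48 ± 0.11 (SD, n = 5), or 15.3 times lower on the linear scale, and nicotine mouse 1 was 2.26 times lower. The value of 6.54 sits just under 6.55, the mean level under which genes were left out of the test as dim. Only 0.983% of the tested genes had so large a deficit in nicotine mouse 3.

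Abcc4 followed the same order at a smaller scale. Its water values were 9.56, 9.49, 9.47, 9.38 and 9.59, and its nicotine values were 8.90, 9.47, 7.42, 9.42 and 9.44. The other 3 nicotine mice lay inside the narrow water range, and nicotine mice 3 and 1 lay below it. Nicotine mouse 3 was 4.24 times and nicotine mouse 1 was 1.52 times lower than the water mean of 9.50 ± 0.08 (SD, n = 5).

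Fkbp5 varied most among the water mice. Its water values were 10.30, 11.01, 10.81, 10.53 and 10.89, and its nicotine values were 10.34, 10.36, 9.24, 10.37 and 10.62. All 5 nicotine mice lay below the water mean of 10.71 ± 0.29 (SD, n = 5), but only nicotine mouse 3 lay below water mouse 1. It was 2.78 times lower than the water mean. Nicotine mouse 1, which was under the water range for the other 5 genes, was inside it for Fkbp5.

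Foxa1 varied least across all 10 mice. Its water values were 11.93, 11.86, 11.73, 11.71 and 11.96, and its nicotine values were 11.53, 11.68, 11.26, 11.84 and 11.77. Nicotine mice 1, 2 and 3 lay below every water mouse, and mice 4 and 5 lay within the water range. In nicotine mouse 3 Foxa1 was 1.49 times lower than the water mean of 11.84 ± 0.11 (SD, n = 5), while Tmprss2 was 15.3 times lower in the same RNA. In that array 22.9% of the tested genes had a deficit as large as that of Foxa1, and the middle 80% of genes lay between -1.37 and 1.04 log2 units from their water means.

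Hoxb13 was the only one of the 6 genes with its lowest value in nicotine mouse 1. Its water values were 11.23, 11.20, 10.90, 10.94 and 10.80, and its nicotine values were 9.98, 10.90, 10.23, 11.21 and 11.00. Nicotine mice 1 and 3 were below every water mouse, and the other 3 lay among the water mice. Against the water mean of 11.02 ± 0.19 (SD, n = 5), Hoxb13 was 2.05 times lower in nicotine mouse 1 and 1.72 times lower in nicotine mouse 3. Water mice 3, 4 and 5 held the 3 lowest Hoxb13 values of the water group and also had the high seminal vesicle marker means of that group, 12.2, 13.2 and 13.1 against 7.30 and 7.42 in water mice 1 and 2. Nicotine mouse 5 had a seminal vesicle mean of 12.7 and a Hoxb13 value of 11.00. The part of that tissue in the spread was not tested.

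Spdef was lower in the same pair of mice and as high as in water elsewhere. Its water values were 9.89, 9.73, 9.47, 9.63 and 9.46, and its nicotine values were 8.84, 9.77, 8.15, 9.88 and 9.70. Nicotine mice 2, 4 and 5 were all above the water mean of 9.64 ± 0.18 (SD, n = 5). Nicotine mouse 3 was 2.80 times and nicotine mouse 1 was 1.73 times below that mean. As for Hoxb13, water mice 3, 4 and 5, with the high seminal vesicle means, lay below water mice 1 and 2. Nicotine mouse 5, with a seminal vesicle mean of 12.7, read 9.70. The part of that tissue was not tested for Spdef either.

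**Figure D1:**
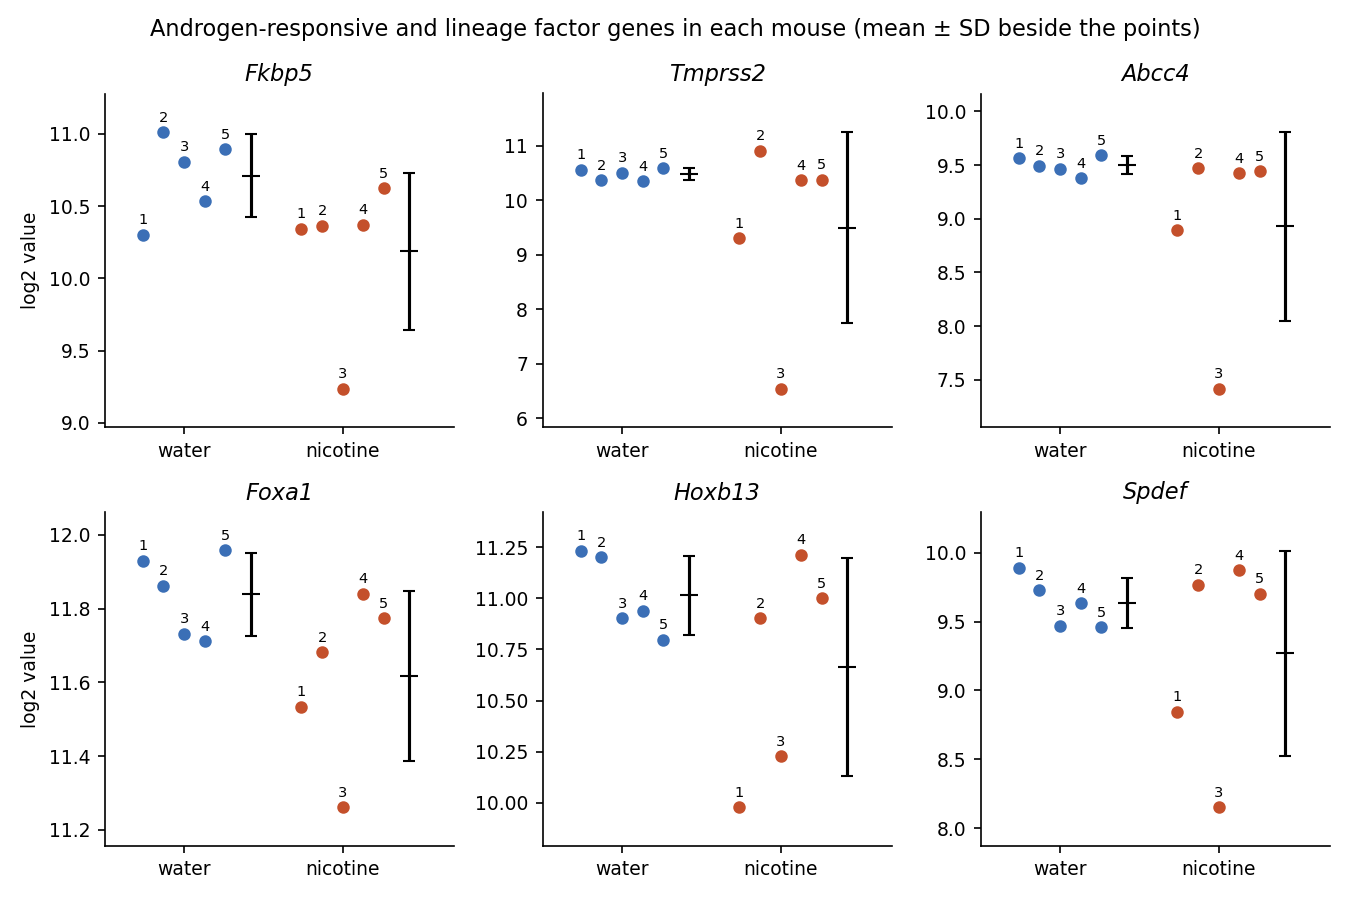
Log2 expression value of each gene (vertical axis, its own scale in each panel) in the 5 water and 5 nicotine mice, with the mouse number beside each point and the group mean ± SD to the right of the points. Nicotine mice 1 and 3 are the lowest pair in 5 panels, and in the Fkbp5 panel nicotine mouse 3 is lowest with water mouse 1 next.

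Across the 6 genes, the order of the deficits in nicotine mouse 3 was Tmprss2 (-3.93), Abcc4 (-2.08), Spdef (-1.48), Fkbp5 (-1.47), Hoxb13 (-0.79) and Foxa1 (-0.58), in log2 units from each water mean. Spdef and Fkbp5 differed there by less than the SD of either gene among the water mice. In nicotine mouse 1 the order was Tmprss2 (-1.17), Hoxb13 (-1.04), Spdef (-0.79), Abcc4 (-0.60), Fkbp5 (-0.37) and Foxa1 (-0.30), where Tmprss2 and Hoxb13 were again closer than the SD of Hoxb13 among the water mice. Nicotine mouse 3 was the lowest of the 10 mice for 5 of the 6 genes, against 35.3% of all tested genes. It was more than 1 log2 unit under the water mean for 4 of the 6, against 14.3% of all tested genes. Nicotine mice 1 and 3 were the lowest pair for 5 of the 6, against 25.8% of all tested genes. All 6 genes in nicotine mouse 3 lay below every water mouse, as did 42.2% of all tested genes, and 5 of the 6 did in nicotine mouse 1, as did 38.6%. Tmprss2 and Hoxb13, 2 of the 6, were more than 1 log2 unit under water in nicotine mouse 1, against 4.60% of all tested genes. These are readings of single mice, with no replicate of their tissue state, and carry no test.

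The deficits of all 6 genes in nicotine mouse 3 were smaller than those of the luminal epithelial and secretory marker means. Tmprss2 (-3.93) came close to the luminal mean, and Foxa1 and Hoxb13 lay furthest from it. The luminal epithelial mean lay 4.05 log2 units and the prostate secretory mean 5.99 log2 units below their water means there. The keratin gene Krt18 read 6.94 in that mouse against 12.57 ± 0.04 (SD, n = 5) in water, and the secretory gene Pbsn read 5.08 against 11.17 ± 0.26 (SD, n = 5). Foxa1 at 11.26 and Hoxb13 at 10.23 remained within 1 log2 unit of their water means in that RNA. Only 14.3% of all tested genes were more than 1 log2 unit under water there. A deficit as large as that of Hoxb13 was found in 18.0% of the tested genes. The basal epithelial mean, 7.04 to 7.27 in water mice, lay 0.53 log2 units below water in nicotine mouse 3. It mixes Krt5 (-1.12), Krt14 (-0.86) and Krt15 (-0.73) with Krt17 (-0.28), Trp63 (-0.13) and Dsg3 (-0.05). These markers were dim in water, with Dsg3 at 5.31, and had little room to fall. Their mean is therefore not ranked against Foxa1 and Hoxb13. In nicotine mouse 1 the luminal epithelial mean was 0.08 log2 units under water and the prostate secretory mean was 1.01 under. All 6 genes were further under water than the luminal mean in that mouse. Tmprss2, Hoxb13 and Spdef were 1.17, 1.04 and 0.79 under, and Abcc4, Fkbp5 and Foxa1 were 0.60, 0.37 and 0.30 under. The luminal mean averages markers on both sides of water there, from -0.62 for Cldn3 to 0.62 for Krt8.

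**Figure D2:**
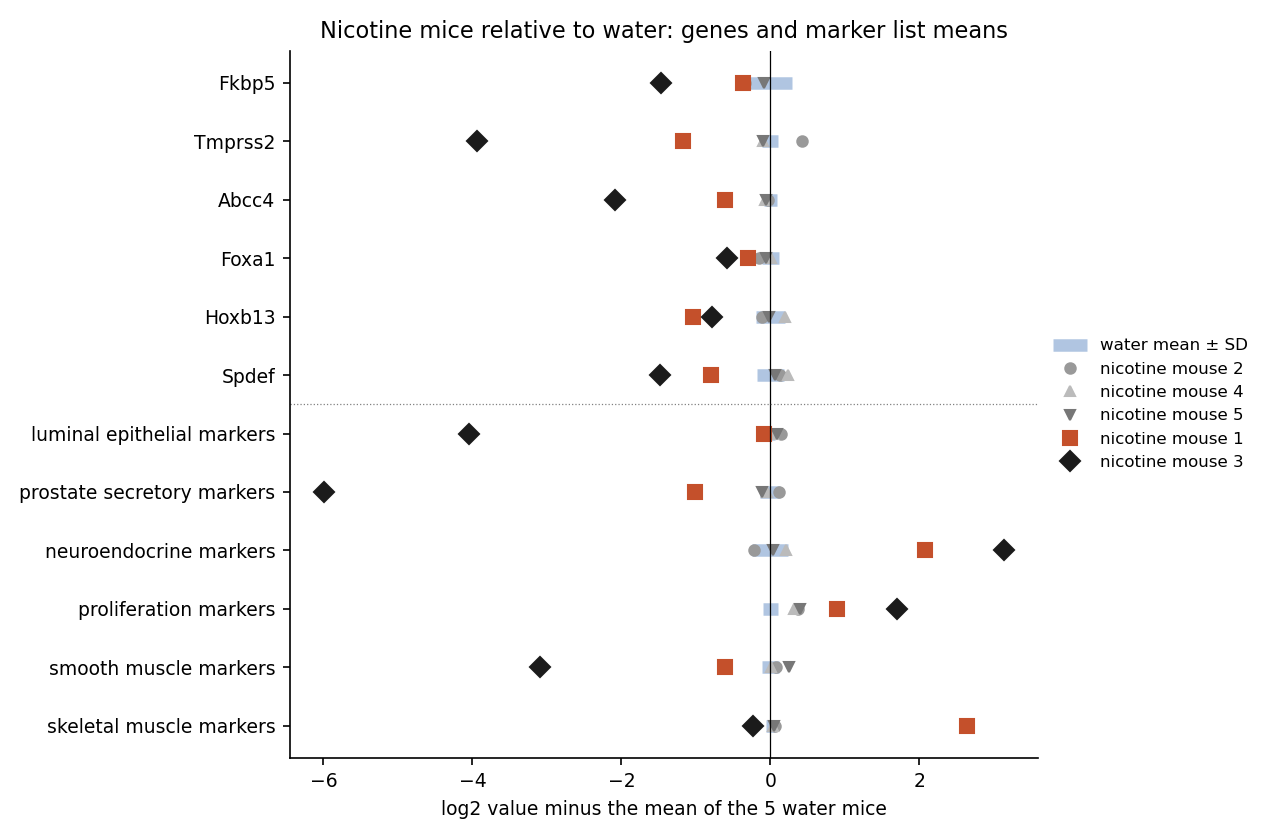
Log2 value of each nicotine mouse minus the mean of the 5 water mice (horizontal axis) for the 6 genes and for the means of 6 marker lists, with the blue band giving the SD of the water mice. Nicotine mouse 3 (diamonds) is far below water for luminal epithelial markers (-4.05) and Tmprss2 (-3.93), and less far below, though outside the band, for Foxa1 (-0.58) and Hoxb13 (-0.79).

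The design asks whether nicotine in the drinking water alters expression in the prostate. None of the 6 genes passed the test of nicotine against water by limma, with an adjusted p under 0.05 as the threshold, and neither did any of the 14953 genes (0% called, and 1514 at an unadjusted p under 0.05). All 6 differences were negative, where 49.3% of all tested genes had a negative difference and the median over all genes was 0.004. None of the 6 had groups that did not overlap in the lower direction, against 2.88% of all tested genes, and none had an unadjusted p under 0.05 in the lower direction, against 5.84%. Separate mice are marked by number in the labels, so the tests measure the spread between mice.

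Fkbp5 differed by -0.52 ± 0.25 log2 units (SE; nicotine minus water), with a 95% interval from -1.09 to 0.04. By limma its unadjusted p was 0.0665 and its adjusted p was 0.458, and the exact two-sided permutation p over the 252 arrangements of the 10 mice was 0.0714. For Foxa1 the difference was -0.22 ± 0.11 (SE), with a 95% interval from -0.47 to 0.03. By limma its unadjusted p was 0.0813 and its adjusted p was 0.458, and the exact permutation p was 0.0794. The permutation p-values are for single genes and are not adjusted. These 2 genes had the smallest p-values of the 6 by limma.

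Abcc4 differed by -0.57 ± 0.36 (SE; 95% interval -1.37 to 0.24). By limma its unadjusted p was 0.146 and its adjusted p was 0.463, and the exact permutation p, not adjusted, was 0.0794. Tmprss2 had the largest difference and the widest error, -0.98 ± 0.71 (SE; 95% interval -2.57 to 0.62), with a limma adjusted p of 0.480. Its SD was 1.75 in the nicotine mice and 0.11 in the water mice, while the median SD over all tested genes was 0.261 and 0.0969. Hoxb13 differed by -0.35 ± 0.23 (SE; -0.87 to 0.17) and Spdef by -0.37 ± 0.31 (SE; -1.07 to 0.34), with limma adjusted p-values of 0.469 and 0.521. The unadjusted p by limma was 0.201 for Tmprss2, 0.164 for Hoxb13 and 0.271 for Spdef. The exact permutation p was 0.310 for Tmprss2, 0.270 for Hoxb13 and 0.389 for Spdef, where the smallest that 252 arrangements allow is 0.00794. All 6 genes were more variable in the nicotine group, from an SD of 0.23 for Foxa1 upward.

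All 6 differences were smaller in size without nicotine mice 1 and 3. These mice were picked from the same data and held the lowest nicotine values of each gene. Leaving them out therefore had to raise each nicotine mean. With both left out, Tmprss2 differed by 0.07 ± 0.12 (SE; 95% interval -0.19 to 0.34), Hoxb13 by 0.02 ± 0.11 (-0.22 to 0.27) and Spdef by 0.15 ± 0.10 (-0.07 to 0.37), all of the opposite sign. Abcc4 differed by -0.05 ± 0.06 (SE; -0.18 to 0.08) and Foxa1 by -0.07 ± 0.07 (-0.23 to 0.09). Fkbp5 had the largest difference in these 8 mice, -0.26 ± 0.15 (SE; -0.58 to 0.07), with an unadjusted p of 0.108 and an adjusted p of 0.450 by limma. In these 8 mice 0 of the 6 genes had groups that did not overlap, against 10.6% of all tested genes, and 0 of the 6 had an unadjusted p under 0.05, against 14.7%. No gene of the 14953 passed at an adjusted p under 0.05 there either, where 2198 had an unadjusted p under 0.05. Without nicotine mouse 3 alone, the differences were -0.24 for Tmprss2, -0.19 for Abcc4, -0.29 for Fkbp5, -0.13 for Foxa1, -0.24 for Hoxb13 and -0.09 for Spdef. Without nicotine mouse 1 alone, Hoxb13 differed by -0.18.

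**Figure D3:**
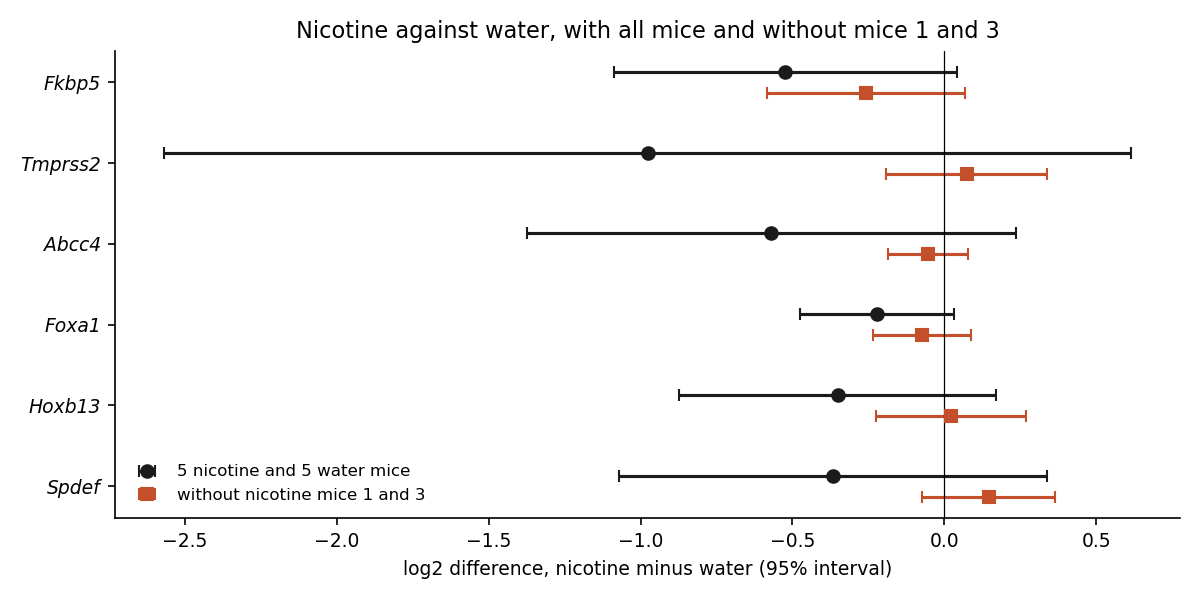
Log2 difference, nicotine minus water, with its 95% interval from the moderated fit, for all 10 mice (black circles) and without nicotine mice 1 and 3 (red squares). Each interval includes 0, and without those mice the Tmprss2 interval narrows from -2.57 to 0.62 down to -0.19 to 0.34.

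Other androgen-induced genes went in both directions. Of a list of 25 such genes, 23 were measured and 22 tested. None passed by limma over all genes, and 5 had an unadjusted p under 0.05, against 10.1% of all tested genes. The differences were negative in 14 and positive in 8, where 49.3% of all tested genes had a negative difference. Their median was -0.31 against 0.004 over all genes. The kinase gene Camkk2 was higher by 0.23 ± 0.08 (SE), the glucocorticoid-induced zipper gene Tsc22d3 differed by -0.30 ± 0.12 and Zbtb10 by -0.35 ± 0.15, each with a limma adjusted p of 0.458. The groups did not overlap for 2 of the 22, against 4.90% of all tested genes: the centromere gene Cenpn was higher in all nicotine mice (0.93 ± 0.41 SE), and the transcription factor gene Maf was lower (-0.37 ± 0.22). Of the 22, 10 were in nicotine mouse 3 more than 1 log2 unit under the water mean, against 14.3% of all tested genes. Pbsn lay 6.09 log2 units under it there and 2.01 under it in nicotine mouse 1. Without nicotine mice 1 and 3 the median difference of the list was 0.01.

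Steroid receptors, their chaperones and coregulators had a median near the water level, with members on both sides of it. Of 27 listed genes 20 were measured and tested, 0 passed by limma and 2 had an unadjusted p under 0.05, against 10.1% of all tested genes. Negative differences numbered 12, against 49.3% of all tested genes. The median difference was -0.03, which turned to 0.003 when arrays were centred on their medians. The coregulator genes Trim24 (-0.27 ± 0.10 SE), Ncoa3 (-0.28 ± 0.11) and Ep300 (-0.19 ± 0.09) had the smallest p. The groups did not overlap for 2 of the 20, Trim24 and Ncoa4, both lower, against 2.88% of all tested genes. More than 1 log2 unit under the water mean in nicotine mouse 3 were 2 of the 20, against 14.3% of all tested genes. The median of the 20 there was 0.01. The glucocorticoid receptor gene Nr3c1, whose product also induces Fkbp5, was 0.23 log2 units under water there and 0.02 above it in nicotine mouse 1. The chaperone gene Hspa8 lay 0.01 above water in nicotine mouse 3. Further from water there were the receptor genes Nr3c2 (-3.23), Pgr (2.50) and Esr1 (1.46) and the coactivator gene Ncoa4 (-2.91). These examples, like Nr3c1 and Hspa8, were chosen after their values were seen.

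Most other transcription factors of the prostate and of luminal epithelium had larger deficits than Foxa1 and Hoxb13 in nicotine mouse 3. Of 19 listed factors, 17 were measured and 16 tested. None passed by limma and 0 had an unadjusted p under 0.05, against 10.1% of all tested genes. Of the 16 differences 14 were negative, against 49.3% of all tested genes, with a median of -0.46 against 0.004. As many as 13 of the 16 were more than 1 log2 unit under the water mean in nicotine mouse 3, against 14.3% of all tested genes, and the median was -2.16. The ETS gene Ehf was 5.55 log2 units under water in that mouse, Gata3 was 4.00 under and Hoxa13, a homeobox relative of Hoxb13, was 2.57 under. The other 3 of the 16 were Meis1 (-0.34), Foxa2 (0.04) and Hoxd10 (0.77), whose values there were nearer to water than that of Hoxb13. These examples were chosen after their values were seen. The 3 with the smallest p were Meis1 (-0.19 ± 0.09 SE) and Meis2 (-0.99 ± 0.57), homeobox partners of HOX proteins, and Hoxa13 (-0.82 ± 0.49). Without nicotine mice 1 and 3 the median difference was 0.01.

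Epithelial genes, mostly of keratins and cell junctions, were read as a further list. It includes all 7 luminal epithelial markers given above, and Grhl1 and Elf3 are also in the list of lineage factors. Its values therefore largely repeat those above. All 12 listed were tested, 0 passed by limma and 0 had an unadjusted p under 0.05, against 10.1% of all tested genes. All 12 differences were negative with a median of -0.74, where 49.3% of all tested genes had a negative difference. All 12 were more than 1 log2 unit under water in nicotine mouse 3, against 14.3% of all tested genes. The median of the list was -3.82 there, while in nicotine mouse 1 it was -0.15. Grhl1 (-0.75 ± 0.48 SE), the adhesion gene Epcam (-0.51 ± 0.39) and the keratin gene Krt19 (-1.33 ± 1.10) had the smallest p. The median difference was 0.08 without nicotine mice 1 and 3.

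The Hox cluster neighbours of Hoxb13 did not share its values in nicotine mouse 1. Of 8 listed neighbours, 7 were measured and tested. All 7 were above the water mean in nicotine mouse 1, where 49.3% of all tested genes were, with a median of 0.79 log2 units, while Hoxb13 was 1.04 under. Hoxb9, the listed gene nearest in number, was 1.26 above water there. In nicotine mouse 3 the 7 had a median of -0.40. None passed the test of nicotine against water by limma, and 0 had an unadjusted p under 0.05, against 10.1% of all tested genes. The smallest p belonged to Hoxb7 (0.21 ± 0.18 SE), Hoxb5 (0.14 ± 0.24) and Hoxb2 (-0.04 ± 0.06).

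**Figure D4:**
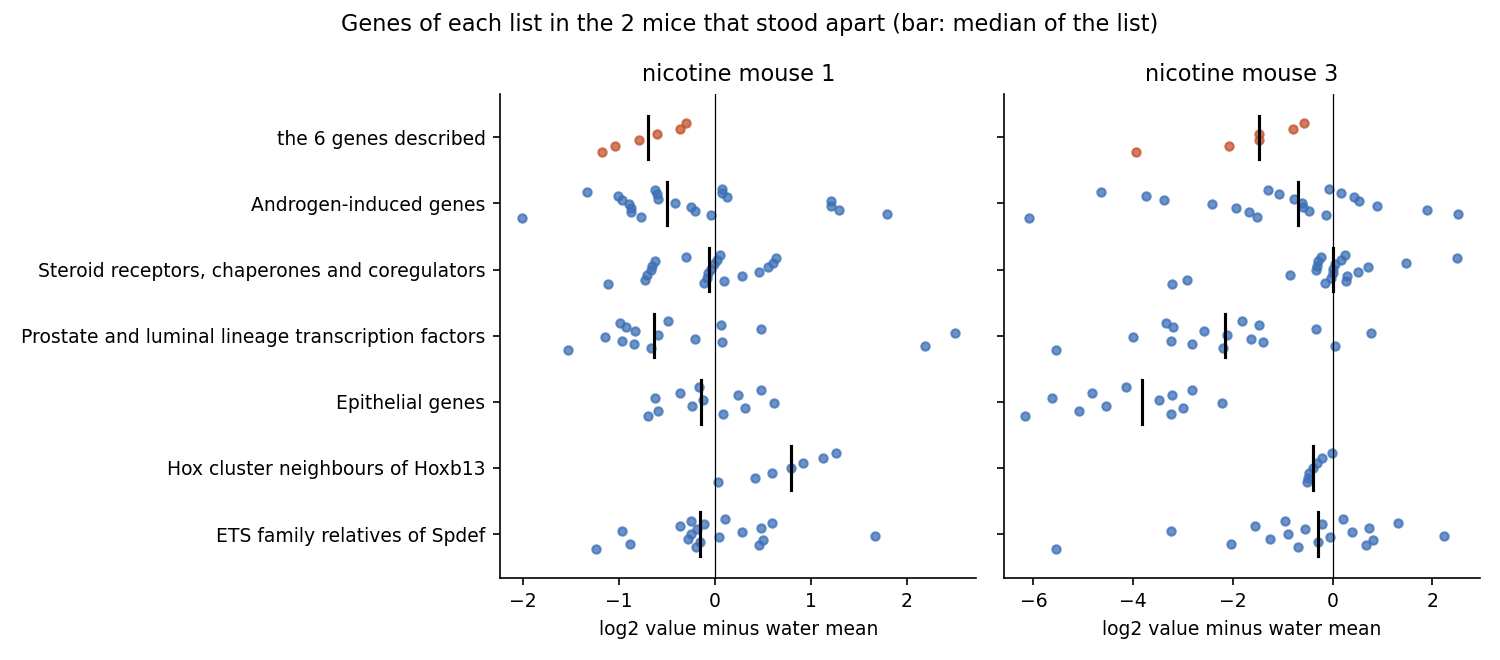
Log2 value minus the water mean (horizontal axes, a scale of their own in each panel) of every tested gene of 6 lists and of the 6 genes described, in nicotine mouse 1 (left) and nicotine mouse 3 (right), with a bar at each median. In nicotine mouse 3 the lineage factors (median -2.16) and epithelial genes (median -3.82) lie far left, and in nicotine mouse 1 the Hox neighbours lie right (median 0.79).

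Relatives of the other members were also read. Of 19 ETS family relatives of Spdef, all tested, 0 passed by limma and 1 had an unadjusted p under 0.05, against 10.1% of all tested genes. Their differences were negative in 13, against 49.3% of all tested genes, with a median of -0.12. Elk1 (0.32 ± 0.14 SE), Fli1 (-0.17 ± 0.09) and Elf1 (-0.65 ± 0.39) had the smallest p. Of 12 membrane serine proteases related to Tmprss2, 9 were tested and 0 passed. None of the 9 had an unadjusted p under 0.05, against 10.1% of all tested genes, and the median difference was 0.02. More than 1 log2 unit under water in nicotine mouse 3 were 4 of the 9, against 14.3% of all tested genes. Of the 3 genes with the smallest p, Prss8 (-1.08 ± 0.83 SE between groups) was 4.58 under water in that mouse and Tmprss13 (-0.89 ± 0.77) was 4.23 under, while Corin (0.29 ± 0.24) was 0.04 above.

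Of 10 relatives of Abcc4, 8 were tested and 0 passed by limma. None of the 8 had an unadjusted p under 0.05, against 10.1% of all tested genes. Their differences were negative in 3, against 49.3% of all tested genes, with a median of 0.04. Abcc1 (0.25 ± 0.15 SE), Abcc12 (-0.11 ± 0.08) and Abcc5 (0.48 ± 0.33) had the smallest p, and the relatives lay on both sides of water in nicotine mouse 3, where Abcc4 was 2.08 log2 units under water. Abcc5 was 1.55 above it there, while Abcc3, named after its values were seen, was 2.49 under there and 0.94 under in nicotine mouse 1. Of 14 FK506-binding protein relatives of Fkbp5, 12 were tested, 0 passed by limma and 3 had an unadjusted p under 0.05, with 7 negative differences and a median of -0.13. Over all tested genes 49.3% had a negative difference and 10.1% had such a p. These 3 were Fkbp7 (-0.57 ± 0.17 SE), Fkbp14 (-0.44 ± 0.17) and Fkbp1a (0.26 ± 0.12). Fkbp4, the closest functional counterpart of Fkbp5 among steroid receptor chaperones, was 0.16 log2 units under water in nicotine mouse 3, where Fkbp5 was 1.47 under. Others of the list, chosen after their values were seen, lay lower in that mouse, by 1.84 for Fkbp9 and 1.05 for Fkbp11, and the list median there was -0.55, with 8 of 12 lowest of the 10 mice, against 35.3% of all tested genes.

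Genes with the most similar profile were sought for each member among 13992 tested genes, by the root mean square difference over the 10 mice after each gene was set to its own water mean. For Tmprss2 they were the chloride channel gene Ano1 (0.108 log2 units), the cytokine receptor gene Il13ra1 (0.117) and the semaphorin gene Sema4a (0.123). For Abcc4 they were Jade2 (0.0511), Krcc1 (0.0596) and Ptpn13 (0.0630), and for Foxa1 they were Pigg (0.0381), Uvssa (0.0596) and Herpud2 (0.0641). For Hoxb13 they were Slc35a2 (0.111), Pura (0.114) and Mrps6 (0.120), for Spdef Elovl1 (0.110), Osgin1 (0.111) and Ddt (0.113), and for Fkbp5 Usp6nl (0.187), Gfpt1 (0.193) and Anxa5 (0.193). No member was among the 3 nearest genes of another. The closest pair of members was Hoxb13 and Spdef, at 0.252, and the most distant was Tmprss2 and Foxa1, at 1.11. In that closest pair by distance, Spdef ranked 708 by nearness to Hoxb13 and Hoxb13 ranked 731 by nearness to Spdef. Some pairs at larger distances had better ranks, the best being Abcc4 at 667 by nearness to Tmprss2, with a distance of 0.631. Fkbp5 had the largest distance to its nearest gene of the 6.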

How the data were processed

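Per the labels' protocols, prostate RNA (Trizol) was amplified and biotin-labelled for single-colour Affymetrix whole-transcript arrays. The authors deposited 1 table of log2 values, 35556 probe sets by 10 arrays. The sources used here do not say how these were background-corrected, summarised and normalized, and the log2 scale was read from their range, 3.59 to 14.1. No scan dates were used, so batches were not checked.

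Probe sets with 1 symbol in the platform annotation were used (21789). The probe set with the highest mean stood for a gene, and the 25% of genes with the lowest mean were left out. Nicotine and water were compared with limma 3.58.1 in R 4.3.3 (lmFit and eBayes, Benjamini-Hochberg over 14953 genes, threshold 0.05), and single genes also by an exact two-sided permutation test. The fit was tested on simulated data with 200 changed genes. Each simulated gene had the same spread in both groups, so that test does not cover the unequal spread of these groups. Intervals are at 95%.

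Members and gene lists were chosen with earlier results of these data known, so no p is adjusted over them alone. Some genes of the lists are not analysed here. Beyond the 6 members, named genes are, per list, the 3 with the smallest p and, per member, the 3 with the nearest profile, without predicted or clone names. Other named genes were chosen after their values were seen. Alternatives covered filters, probe sets, scaling, variance models, array weights, a replicate block, tissue marker covariates and left-out mice.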

Additional observations from a re-analysis of the deposited data

Results flagged for a closer look

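Of the 6 genes and 12 marker list means, each tested in 2 groups of 5 mice, 8 of 36 groupings had a mouse whose gap to its neighbour was large for the range of its group (Dixon's test at its 95% critical value). Chance gives about 1 in 20 where groupings are independent. These 36 come from the same 10 mice and most flags fall on nicotine mouse 3, so they are not independent. Among the genes, Fkbp5 in nicotine mouse 3 (9.24, ratio 0.798) and Abcc4 in nicotine mouse 3 (7.42, ratio 0.720) were so far from the other nicotine mice. Tmprss2, Spdef, Hoxb13 and Foxa1 had no such mouse in either group. The ratio looks for a single distant mouse, and a second low mouse can hide the first. Nicotine mice 1 and 3 were the lowest pair for each of these genes, so the ratio cannot decide there. For Tmprss2 in nicotine mouse 3 it was 0.633, against a critical value of 0.71.

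Among the marker lists, nicotine mouse 3 was far below the other nicotine mice for luminal epithelial (7.71), prostate secretory (5.99), smooth muscle (8.22) and fibroblast (8.40) means. Nicotine mouse 1 was far above for the skeletal muscle mean (10.4), and water mouse 1 for the fibroblast mean of the water group (10.1).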

How the results depend on the processing

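Over 22 alternatives, 125 of 132 values of the 6 genes kept their direction and stayed on the same side of the threshold, and 7 turned to a positive difference. Some that kept their sign were close to 0: Tmprss2 (-0.00093) and Abcc4 (-0.046) with array weights, and Abcc4 (-0.0035) with the neuroendocrine covariate. Tmprss2 turned without nicotine mice 1 and 3 (0.075) and with the neuroendocrine marker mean as a covariate (0.17). Hoxb13 turned with array weights (0.0227) and without nicotine mice 1 and 3 (0.0229). Spdef turned with array weights (0.15), without nicotine mice 1 and 3 (0.15) and with the neuroendocrine covariate (0.13). Array weights give little weight to nicotine mouse 3 (0.0321) and nicotine mouse 1 (0.113). They also gave 1096 genes at an adjusted p under 0.05 by limma, none of them among the 6, where each other setting gave 0. The adjusted p over all settings ran from 0.222 to 0.948 for Fkbp5, and the lowest of any other member was 0.300.

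Leaving out 1 mouse at a time, the differences ran from -0.63 to -0.29 for Fkbp5, -1.33 to -0.24 for Tmprss2, -0.70 to -0.19 for Abcc4, -0.28 to -0.13 for Foxa1, -0.49 to -0.18 for Hoxb13 and -0.52 to -0.09 for Spdef. All 10 of these settings gave 0 genes at an adjusted p under 0.05. With the luminal epithelial mean as a covariate the difference was -0.27 for Tmprss2, -0.30 for Fkbp5 and -0.13 for Foxa1.

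The labels use mouse numbers 1 to 5 in both groups without saying that a number is shared. Deviations of same-numbered mice correlated at -0.13 to 0.16, and 1 of 10 mice correlated best with its own number, so the numbers were not taken as pairs. The replicate block gave 0 genes at an adjusted p under 0.05, 1005 against 1514 at an unadjusted p under 0.05, and the same differences, such as -0.98 for Tmprss2. No detection calls were used, so how far the lowest Tmprss2 value stands above background is unknown.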

Other observations

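Some factors from the lists had higher values in nicotine mice 1 or 3, the mice with high neuroendocrine markers. They were chosen after their values were seen, and none passed by limma. Foxa2, a forkhead relative of Foxa1, lay 2.19 log2 units above the water mean of 7.50 in nicotine mouse 1 and 0.04 above it in nicotine mouse 3. Hoxd10 lay 2.50 above in nicotine mouse 1 and 0.77 in nicotine mouse 3. In the ETS family Etv1 was 2.23 above water in nicotine mouse 3 and 0.20 below it in nicotine mouse 1, while Etv5 was above in both, by 1.32 and 1.67.

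Among androgen-induced genes, Cenpn was 2.52 log2 units above water in nicotine mouse 3 and 1.30 above in nicotine mouse 1 (limma adjusted p = 0.458 between groups). Its product belongs to the centromere, and the proliferation marker mean was 11.4 and 10.6 in these mice against 9.63 to 9.83 in water. In the other nicotine mice that mean was 10.03 to 10.11, also above every water mouse. Cenpn still differed by 0.27 ± 0.05 (SE) without nicotine mice 1 and 3, with an unadjusted p of 2.4e-04 by limma. No gene passed at an adjusted p under 0.05 in that fit. The part of proliferation in these values was not tested.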
